A study of Homo sapiens with 4 samples.

Results

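The genes described here write, copy, read and remove DNA methylation: the DNA methyltransferases DNMT1, DNMT3A and DNMT3B, the maintenance cofactor UHRF1, the dioxygenases TET1, TET2 and TET3, and the methyl-CpG reader MBD2. They were chosen by name, as the rows whose gene name equals 1 of these 8 symbols, and all 8 were found among the 16371 listed genes, with 30 of the 56389 listed transcripts. RNA sequencing had been done on clusters of A549, an established human lung adenocarcinoma cell line, in libraries named shDUSP23 (genotype label DUSP23 knockdown) and shMock (genotype label Wild type). The shDUSP23 cells carried a short hairpin RNA against DUSP23, a small dual-specificity phosphatase gene, and the shMock cells a control construct, with 2 libraries in each group and no drug treatment named. All 4 sample titles carry the suffix SUS, whose meaning the labels do not give. The number of hairpins, whether the lines were clonal, and whether the libraries of a group came from separate cultures are not stated in the labels. The p-values here therefore reach no further than these 4 libraries. In the main limma tests the spread of each gene or transcript was also drawn towards a trend over all those tested. In bulk RNA, fewer cells of a type and less RNA per cell cannot be told apart.

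Methylation of cytosine in CpG dinucleotides is laid down mainly by DNMT3A and DNMT3B and is copied after replication by DNMT1, which UHRF1 brings to hemimethylated DNA by binding that DNA and ubiquitylating histone H3. TET enzymes oxidise 5-methylcytosine, which leads to its loss through base excision repair or through dilution at replication. MBD2 binds methylated CpG sites and recruits the NuRD chromatin remodelling and deacetylase complex to them. In lung adenocarcinoma, as in other carcinomas, this machinery is known for the methylation of CpG island promoters of silenced genes alongside wider loss of methylation across the genome.

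The sequences printed here are 3 promoter windows and a stretch of DNMT3B that differs between its transcripts. Each window is RefSeq sequence of build GRCh38.p14, running from 250 bases before to 50 bases after a transcription start site and read 5′ to 3′ on the gene's strand. The windows are those of UHRF1 and DNMT1, which act together but had different RNA values, and of TET3, which had the highest fold change of the members. Capitals in the windows mark cores of the E2F type (TTCCCGC or TTGGCGC, on either strand), a motif known from promoters of S-phase genes.
UHRF1, chr19:4909251-4909550, plus strand: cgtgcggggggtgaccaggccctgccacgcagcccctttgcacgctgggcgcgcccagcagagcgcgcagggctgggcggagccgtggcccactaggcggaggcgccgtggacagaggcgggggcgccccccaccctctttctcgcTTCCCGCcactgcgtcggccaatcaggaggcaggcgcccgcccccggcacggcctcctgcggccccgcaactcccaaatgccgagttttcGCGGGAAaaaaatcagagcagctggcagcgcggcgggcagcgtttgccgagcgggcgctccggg
DNMT1, chr19:10194904-10195203, minus strand: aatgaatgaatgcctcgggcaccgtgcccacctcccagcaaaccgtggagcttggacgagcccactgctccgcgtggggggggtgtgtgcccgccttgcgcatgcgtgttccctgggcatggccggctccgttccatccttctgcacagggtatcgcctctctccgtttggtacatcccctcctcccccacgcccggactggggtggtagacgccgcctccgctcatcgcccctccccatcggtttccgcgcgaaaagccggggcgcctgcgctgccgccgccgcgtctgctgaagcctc
TET3, chr2:73984660-73984959, plus strand: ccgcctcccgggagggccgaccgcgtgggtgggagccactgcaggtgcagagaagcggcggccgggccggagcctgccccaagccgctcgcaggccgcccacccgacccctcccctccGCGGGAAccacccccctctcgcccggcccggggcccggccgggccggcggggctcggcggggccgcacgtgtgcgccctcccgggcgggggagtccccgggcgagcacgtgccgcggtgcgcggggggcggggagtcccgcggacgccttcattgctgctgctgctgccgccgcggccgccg
The UHRF1 window, whose start site lies within 10 bases of the starts of the transcripts UHRF1-207 and UHRF1-208, held 2 such cores, beginning at -104 and -14 bases from the start site, and 36 CpG dinucleotides. The DNMT1 window, at the start of 8 of the 12 listed DNMT1 transcripts, held 0 cores and 30 CpG. The TET3 window, at the start of TET3-202, held 1 core at -132 bases and 45 CpG. None of the other 16 RefSeq windows of the 8 members held a core. The only DNMT3B window among them lies 17428 bases from the start of the listed DNMT3B transcripts. A core was found in 9.2% of all 35116 RefSeq windows of this length and 2 or more in 0.9%, and the median window had 14 CpG. Other spellings of the E2F motif were not searched, so a window without a core may still hold an E2F-type site. These letters describe the windows and were not tested against the RNA values.

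The fourth sequence is coding sequence of DNMT3B, read 5′ to 3′ on the plus strand from the GENCODE 29 transcript (GRCh38), in which capitals mark the bases that DNMT3B-204 has and DNMT3B-203 lacks, with 20 bases of shared sequence in lower case on each side.
DNMT3B-204 exons absent from DNMT3B-203: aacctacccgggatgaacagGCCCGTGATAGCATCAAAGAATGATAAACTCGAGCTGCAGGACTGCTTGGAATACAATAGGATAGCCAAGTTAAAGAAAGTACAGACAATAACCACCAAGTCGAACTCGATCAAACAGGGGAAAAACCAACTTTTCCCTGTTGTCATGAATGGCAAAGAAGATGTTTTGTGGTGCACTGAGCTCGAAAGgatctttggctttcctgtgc
The 189 capital bases come from exon 20 (chr20:32805338-32805407, 70 bases) and exon 21 (chr20:32806209-32806327, 119 bases) of DNMT3B-204. Both exons are wholly coding and together encode 63 residues. With them the coding sequence gives 833 residues, and without them 770.

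The libraries held 26987000 and 42160000 fragments in shDUSP23 and 21272000 and 25284000 in shMock, as recovered from the steps between low values of single-transcript genes. Levels are FPKM, the authors' fragment values scaled by transcript length and library size, added up within each gene ID. DUSP23 had 1.71 and 2.71 FPKM in the shDUSP23 libraries, against 29.96 and 35.9 FPKM in the shMock libraries (log2 fold change -3.64, SE 0.22; limma, Benjamini-Hochberg adjusted p = 3.12e-05), as its knockdown label says. Fold changes are shDUSP23 minus shMock on the scale of log2(FPKM + 0.5), which understates changes of low genes. The listed FPKM summed to 438604 and 446982 in shDUSP23 and to 540163 and 578361 in shMock, so libraries were also scaled to equal sums, which moved the median log2 fold change over all genes to 0.34, against 0.03 as deposited. Testing by limma was limited to genes averaging 1 FPKM or more, and called means a Benjamini-Hochberg adjusted p below 0.05. All 7 genes listed as markers of A549 had values, summing to 3258 and 3393 FPKM in shDUSP23 and 7651 and 8801 FPKM in shMock. Of the 7, 6 were called lower, or 3 with equal sums, beside 22.2% of all tested genes called lower on the deposited scale. The enzymes NQO1, AKR1B10 and ALDH1A1, which are not epithelial markers, had log2 fold changes of -1.92, -2.31 and -2.13. The epithelial keratins KRT7, KRT8 and KRT18 had -0.33, -0.26 and -0.44, with KRT8 not passing, and the epithelial gene EPCAM had -0.71. With equal sums KRT7, KRT8, KRT18 and EPCAM had 0.003, 0.07, -0.10 and -0.41, and none of them was called. Among 10 markers of other cell types 3 had values. The leukocyte marker CD14 had 0.983 and 0.995 FPKM in shDUSP23, against 4.68 and 8.0 FPKM in shMock, and the fibroblast collagens COL1A1 and COL3A1 summed to 4.29 and 4.82 FPKM in shDUSP23 and 3.16 and 2.58 FPKM in shMock. PTPRC and CD3E of leukocytes, COL1A2 of fibroblasts and the endothelial genes PECAM1, VWF and CDH5 had no value to compare, and the part of other cells in the values below was not tested.

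TET3, MBD2 and TET2 rose in shDUSP23 and UHRF1 fell, while DNMT1, DNMT3A and DNMT3B did not pass the test and TET1 was too low to be tested. By group means the ratio of shDUSP23 to shMock was 2.13 for TET3, 1.91 for MBD2, 1.67 for TET2 and 0.454 for UHRF1. Thus 4 of the 7 tested members, 57.1%, were called changed, 3 higher and 1 lower, beside 45.3% of all 13691 tested genes, 23.1% higher and 22.2% lower. In this series nearly every second gene was called, so the share of members called stands close to that background. The median log2 fold change of the 7 was 0.42, against 0.03 over all tested genes. The values of the 2 groups did not overlap for any of the 7, as for 75.5% of all tested genes.

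**Figure D1:**
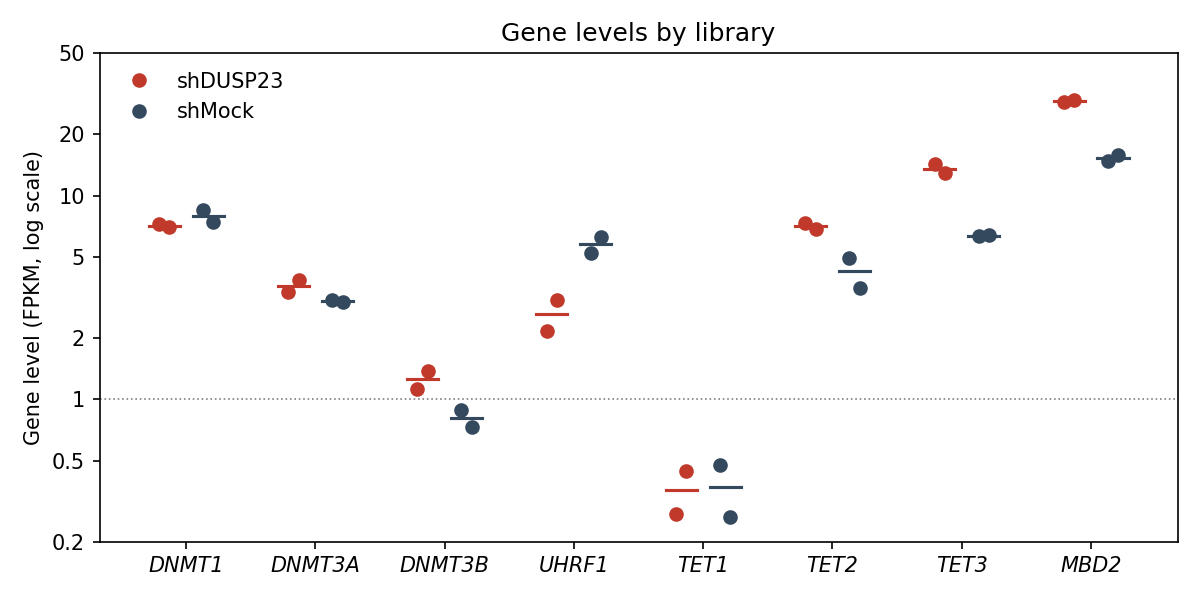
Gene level in FPKM (log axis) of the 8 members, with 1 point per library, shDUSP23 left of shMock, and a line at each group mean (n = 2). Only for TET1 do the points of the groups overlap, and the dotted line marks the 1 FPKM at which genes were tested.

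UHRF1 (ENSG00000276043, chromosome 19, plus strand), the hemimethylated-DNA binding ubiquitin ligase that leads DNMT1 to newly copied DNA, had 2.16 and 3.08 FPKM in shDUSP23, against 5.24 and 6.29 FPKM in shMock. Each shDUSP23 library was lower than each shMock library. The means were 2.62 ± 0.66 FPKM in shDUSP23 and 5.77 ± 0.74 FPKM in shMock (SD, n = 2 each). On the log2 scale it fell by 1.02 (SE 0.25, 95% interval of the fold change -1.58 to -0.46; limma, Benjamini-Hochberg adjusted p = 0.0103), and 8.95% of tested genes had a lower one. Without shMock 1 the log2 fold change was -1.14 and without shMock 2 it was -0.90, and neither passed (limma, Benjamini-Hochberg adjusted p = 0.0514 and 0.114). Leaving out a library leaves 1 in its group, which is then assumed to vary like the other group, and the calls over all genes fell to 4038 without shMock 1 and 3464 without shMock 2, against 6202 with all libraries.

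The 3 listed UHRF1 transcripts are all protein-coding and were each lower in both shDUSP23 libraries. UHRF1-207 and UHRF1-208, whose ends differ by 3 bases, carried the same value in every library, 0.998 and 1.38 FPKM in shDUSP23 and 2.35 and 2.63 FPKM in shMock. UHRF1-206, which begins at its own start site, chr19:4910367, had 0.161 and 0.315 FPKM in shDUSP23 and 0.538 and 1.03 FPKM in shMock, from 14 and 43 fragments in shDUSP23 and 37 and 84 in shMock. Its window at that start held 46 CpG and no E2F-type core, unlike the window printed above for the other start. UHRF1-206 over the sum of the other forms was 0.0805 and 0.114 in shDUSP23 and 0.114 and 0.196 in shMock, an exact two-sided permutation p of 0.333, the smallest that 2 against 2 libraries can give. Neither tested transcript of UHRF1 passed at transcript level (log2 fold change -0.83 each; limma, Benjamini-Hochberg adjusted p = 0.263).

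DNMT1 (ENSG00000130816, chromosome 19, minus strand), the maintenance methyltransferase, had 7.27 and 6.98 FPKM in shDUSP23, against 8.47 and 7.45 FPKM in shMock. The shDUSP23 values lay just below the shMock values, with a gap smaller than the spread within shMock. The means were 7.12 ± 0.21 FPKM in shDUSP23 and 7.96 ± 0.72 FPKM in shMock (SD, n = 2 each), and the fold change on the log2 scale was -0.15 (SE 0.18; limma, Benjamini-Hochberg adjusted p = 0.523). The 95% interval, -0.56 to 0.26, runs from 0.680 to 1.20 times the shMock level on the offset scale, so a fall as large as the fitted one of UHRF1 lies outside it. The value was 0.17 with equal sums, and -0.51 after the libraries were corrected for length and GC content, past the threshold (limma, Benjamini-Hochberg adjusted p = 0.0349), which rests on the 3 of its 12 transcripts with a reference sequence.

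The ratio of UHRF1 to DNMT1, levels per length from the same library, was 0.297 and 0.442 in shDUSP23 and 0.618 and 0.845 in shMock. Both shDUSP23 ratios were below both shMock ratios, a difference in mean log2 ratio of -1.0, with an exact two-sided permutation p of 0.333, again the smallest possible. Scaling a library does not alter this ratio.

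The division of DNMT1 among its 12 listed transcripts was unstable between libraries of the same group. DNMT1-202, a protein-coding form with an annotated 1632 residues, had 0.442 and 1.51 FPKM in shDUSP23 and 2.53 and 1.07 FPKM in shMock. The protein-coding DNMT1-251 had 0.00723 and 4.59 FPKM in shDUSP23 and 1.05 and 0 FPKM in shMock. DNMT1-233, labelled as a target of nonsense-mediated decay, had 3.12 and 0 FPKM in shDUSP23 and 1.64 and 2.82 FPKM in shMock. In each case 1 library of a group held much and the other little or none, and 9 of the 12 transcripts stood at 0 in at least 1 library. Protein-coding forms made up 52.3% and 89.7% of DNMT1 FPKM in shDUSP23 and 44.7% and 18.2% in shMock, so the gene sum was far steadier than its parts. Summing protein-coding transcripts alone gave a log2 fold change of 0.93 (limma, Benjamini-Hochberg adjusted p = 0.106), the opposite sign of the gene sum.

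DNMT3A (ENSG00000119772, chromosome 2, minus strand), a de novo methyltransferase, had 3.36 and 3.84 FPKM in shDUSP23, against 3.07 and 2.99 FPKM in shMock. Both shDUSP23 values were above both shMock values, and the means were 3.60 ± 0.34 FPKM in shDUSP23 and 3.03 ± 0.054 FPKM in shMock (SD, n = 2 each). The log2 fold change of 0.21 (SE 0.23, 95% interval -0.31 to 0.74) did not pass (limma, Benjamini-Hochberg adjusted p = 0.475), and a correction for GC content and length gave -0.11.

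Within DNMT3A the 2 protein-coding forms had opposite directions. The remaining listed form, DNMT3A-204, is labelled as a target of nonsense-mediated decay, and its groups overlapped. It had 0.496 and 0.349 FPKM in shDUSP23 and 0.472 and 0.168 FPKM in shMock. The long form DNMT3A-202, with 912 annotated residues, had 1.29 and 1.24 FPKM in shDUSP23 and 1.61 and 1.59 FPKM in shMock. The shorter DNMT3A-203, with 723 annotated residues, starts downstream at chr2:25252311, within the gene, where short DNMT3A forms lacking the N-terminal part are known to begin. It had 1.57 and 2.25 FPKM in shDUSP23 and 0.982 and 1.24 FPKM in shMock, from 152 and 340 fragments in shDUSP23 and 75 and 112 in shMock. The groups did not overlap for either form, lower in shDUSP23 for the long one and higher for the short one. The long form made up 38.5% and 32.2% of the gene in shDUSP23 and 52.6% and 53.0% in shMock, and the short form 46.7% and 58.7% in shDUSP23 and 32.0% and 41.4% in shMock. The short over the long form was 1.21 and 1.82 in shDUSP23 and 0.610 and 0.780 in shMock, with an exact two-sided permutation p of 0.333, the smallest possible. The test of each share within the gene passed for neither (limma, Benjamini-Hochberg adjusted p = 0.50 for the long and 0.624 for the short form), as for 0 of 34525 transcripts in all.

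DNMT3B (ENSG00000088305, chromosome 20, plus strand), the other de novo methyltransferase, had 1.13 and 1.38 FPKM in shDUSP23, against 0.882 and 0.734 FPKM in shMock. The groups did not overlap, with means of 1.25 ± 0.18 FPKM in shDUSP23 and 0.808 ± 0.105 FPKM in shMock (SD, n = 2 each). The log2 fold change was 0.42 (SE 0.34, 95% interval -0.34 to 1.19) and did not pass (limma, Benjamini-Hochberg adjusted p = 0.332).

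The DNMT3B values differed by form. DNMT3B-203, which lacks the 189 bases printed above, had 0.750 and 0 FPKM in shDUSP23 and 0.882 and 0.734 FPKM in shMock, from 82 and 0 fragments in shDUSP23 and 76 and 75 in shMock. DNMT3B-204, which contains them, had 0.376 and 1.38 FPKM in shDUSP23 and was listed at 0 in both shMock libraries, from 43 and 247 fragments in shDUSP23. The longer form thus had 33.4% of the gene in shDUSP23 1 and 100% in shDUSP23 2, and no listed share in shMock. In the shMock libraries 3 fragments would equal 0.0333 and 0.0280 FPKM. That floor covers counting error only, not the division of fragments between the forms. The residues encoded by the 2 exons lie in the catalytic domain, and the shorter form is known as an inactive one that can assist other methyltransferases. Both forms had means under 1 FPKM and were not tested, their sequences differ only in these exons, and an exact 0 can come from how fragments were divided between them.

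**Figure D2:**
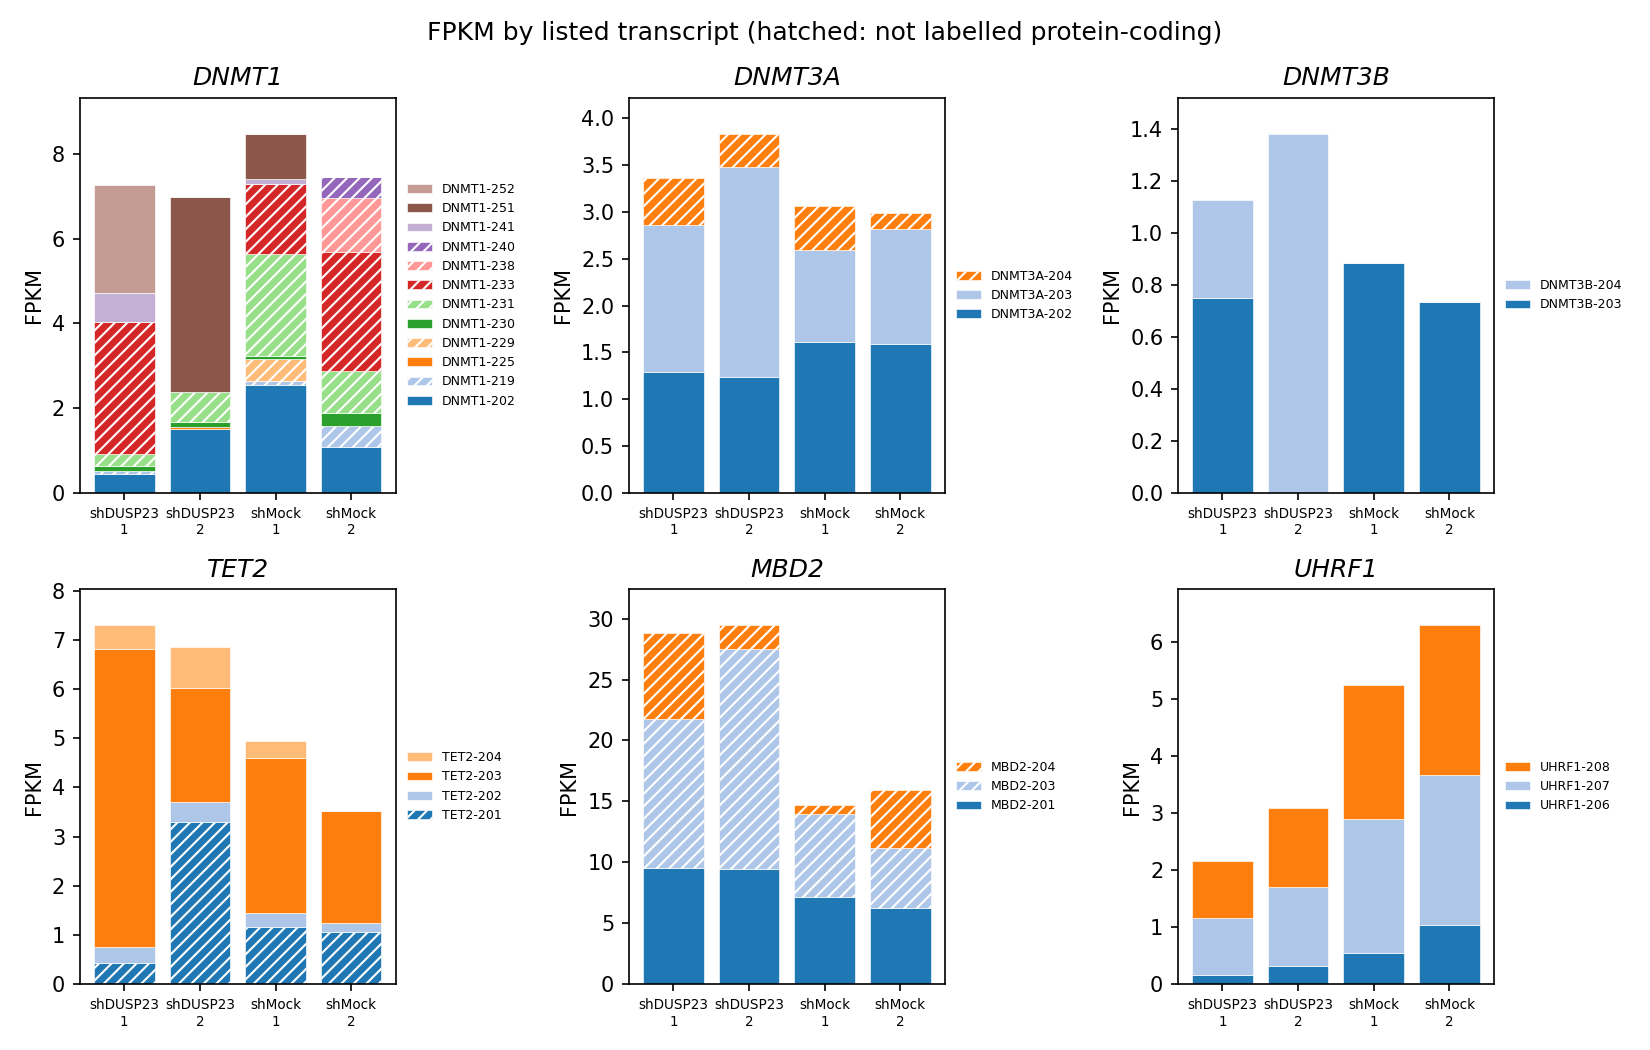
FPKM of each listed transcript, stacked by library with shDUSP23 left of shMock, for 6 of the members, with hatching for those not labelled protein-coding. DNMT3B-204 appears in the shDUSP23 bars alone, and the stacks of DNMT1 and TET2 differ between libraries of the same group.

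TET3 (ENSG00000187605, chromosome 2, plus strand), a dioxygenase of 5-methylcytosine, had 14.2 and 12.9 FPKM in shDUSP23, against 6.31 and 6.39 FPKM in shMock. Each shDUSP23 library was above 2 times either shMock library. The means were 13.6 ± 0.96 FPKM in shDUSP23 and 6.35 ± 0.053 FPKM in shMock (SD, n = 2 each). Its log2 fold change was 1.04 (SE 0.17, 95% interval 0.66 to 1.41; limma, Benjamini-Hochberg adjusted p = 0.00154), and 91.1% of tested genes had a lower one. The call stood under all 17 alternative settings tried for the gene.

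Nearly all TET3 signal lay on 1 form. TET3-202, annotated with 1795 residues and starting at the window printed above, had 14.0 and 11.7 FPKM in shDUSP23, against 6.31 and 6.39 FPKM in shMock. TET3-201, which starts further downstream at chr2:74002713, had 0.215 and 1.15 FPKM in shDUSP23, from 30 and 252 fragments, and 0 FPKM in both shMock libraries. At transcript level TET3-202 had a log2 fold change of 0.96 (SE 0.19; limma, unadjusted p = 0.00537 and Benjamini-Hochberg adjusted p = 0.0711), which did not pass over 37453 transcripts.

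TET2 (ENSG00000168769, chromosome 4, plus strand), the TET enzyme often mutated in blood cancers, had 7.31 and 6.87 FPKM in shDUSP23, against 4.95 and 3.53 FPKM in shMock. Both shDUSP23 libraries were higher, and the libraries spread more within shMock. The means were 7.09 ± 0.31 FPKM in shDUSP23 and 4.24 ± 1.01 FPKM in shMock (SD, n = 2 each). Its log2 fold change was 0.69 (SE 0.22, 95% interval 0.19 to 1.20; limma, Benjamini-Hochberg adjusted p = 0.0318). The call was lost without shMock 2 (log2 fold change 0.48; limma, Benjamini-Hochberg adjusted p = 0.231), without shDUSP23 1 (0.65, adjusted p = 0.0529) and with protein-coding transcripts alone (0.62, adjusted p = 0.167).

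The TET2 forms were divided differently in the 2 shDUSP23 libraries. TET2-203, the full form with 2002 annotated residues, had 6.06 and 2.33 FPKM in shDUSP23 and 3.14 and 2.29 FPKM in shMock. TET2-201, which is labelled as a target of nonsense-mediated decay, had 0.425 and 3.30 FPKM in shDUSP23 and 1.16 and 1.06 FPKM in shMock. The full form was high in shDUSP23 1 alone and the other form in shDUSP23 2 alone. The protein-coding share of TET2 was 94.2% and 52.0% in shDUSP23 and 76.6% and 69.9% in shMock, so the groups overlapped. TET2-202 and TET2-204, which end before the exons of the catalytic domain, had 0.329 and 0.397 FPKM and 0.492 and 0.847 FPKM in shDUSP23, against 0.295 and 0.172 FPKM and 0.359 and 0 FPKM in shMock.

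TET1 (chromosome 10, plus strand, 1 listed transcript), the TET enzyme of embryonic stem cells, had 0.274 and 0.443 FPKM in shDUSP23, against 0.479 and 0.264 FPKM in shMock. The groups overlapped, with means of 0.358 ± 0.12 FPKM in shDUSP23 and 0.371 ± 0.152 FPKM in shMock (SD, n = 2 each). Without the filter on low values its log2 fold change was -0.02 (95% interval -0.68 to 0.64; limma, Benjamini-Hochberg adjusted p = 0.967), an interval that leaves room for a change in either direction.

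TET3 over TET2 was 1.95 and 1.88 in shDUSP23 and 1.27 and 1.81 in shMock. The sum of TET2 and TET3 over the sum of DNMT3A and DNMT3B was 4.80 and 3.79 in shDUSP23 and 2.85 and 2.66 in shMock. For both ratios the shDUSP23 libraries were higher without overlap, and the exact two-sided permutation p was 0.333, the smallest possible.

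MBD2 (ENSG00000134046, chromosome 18, minus strand), which links methylated CpG to NuRD, had the highest sum over listed transcripts of all members in both groups. It had 28.9 and 29.5 FPKM in shDUSP23 and 14.7 and 15.9 FPKM in shMock. The shDUSP23 libraries were close to each other and far above shMock. The means were 29.2 ± 0.43 FPKM in shDUSP23 and 15.3 ± 0.83 FPKM in shMock (SD, n = 2 each). Its log2 fold change was 0.91 (SE 0.13, 95% interval 0.60 to 1.22; limma, Benjamini-Hochberg adjusted p = 0.00105).

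Much of the MBD2 difference lay outside its protein-coding transcript. MBD2-201, which encodes 411 annotated residues, had 9.48 and 9.47 FPKM in shDUSP23, against 7.09 and 6.26 FPKM in shMock. Protein-coding TET3 had 14.2 and 12.9 FPKM in shDUSP23 and 6.31 and 6.39 FPKM in shMock. On protein-coding transcripts alone MBD2 thus stood below TET3 in shDUSP23 and overlapped it in shMock. MBD2-203, a transcript of 701 bases labelled as a target of nonsense-mediated decay, had 12.3 and 18.0 FPKM in shDUSP23, against 6.84 and 4.86 FPKM in shMock. Its 233 and 533 fragments in shDUSP23, against 102 and 86 in shMock, count for more FPKM than the same number on a long transcript would. The noncoding MBD2-204, of 241 bases, had 7.07 and 1.96 FPKM in shDUSP23 and 0.780 and 4.77 FPKM in shMock, from 46 and 20 fragments in shDUSP23 and 4 and 29 in shMock, and its groups overlapped. The protein-coding transcript held 32.8% and 32.1% of MBD2 in shDUSP23 and 48.2% and 39.4% in shMock. Taken alone it had a log2 fold change of 0.48 and did not pass among genes summed over protein-coding transcripts (limma, Benjamini-Hochberg adjusted p = 0.0537). MBD2-203 over MBD2-201 was 1.30 and 1.90 in shDUSP23 and 0.964 and 0.777 in shMock, with an exact two-sided permutation p of 0.333, the smallest possible. At transcript level MBD2-203 had a log2 fold change of 1.30 (SE 0.29; limma, unadjusted p = 0.00852 and Benjamini-Hochberg adjusted p = 0.0853).

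Of the 30 member transcripts 14 had a mean of at least 1 FPKM and were tested, and 0 were called, beside 4.15% of 37453 tested transcripts, 1.7% higher and 2.45% lower. At an unadjusted p under 0.05 there were 2, TET3-202 and MBD2-203. Transcript values were noisier than gene sums: the correlation of log2 values between the libraries of a group was 0.766 in shDUSP23 and 0.884 in shMock over transcripts, against 0.969 in shDUSP23 and 0.986 in shMock over genes. Over all listed transcripts, 9946 stood at 0 in shDUSP23 2, the library with the most fragments. The number at 0 was 4814 in shDUSP23 1 and 2930 and 4334 in shMock.

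**Figure D3:**
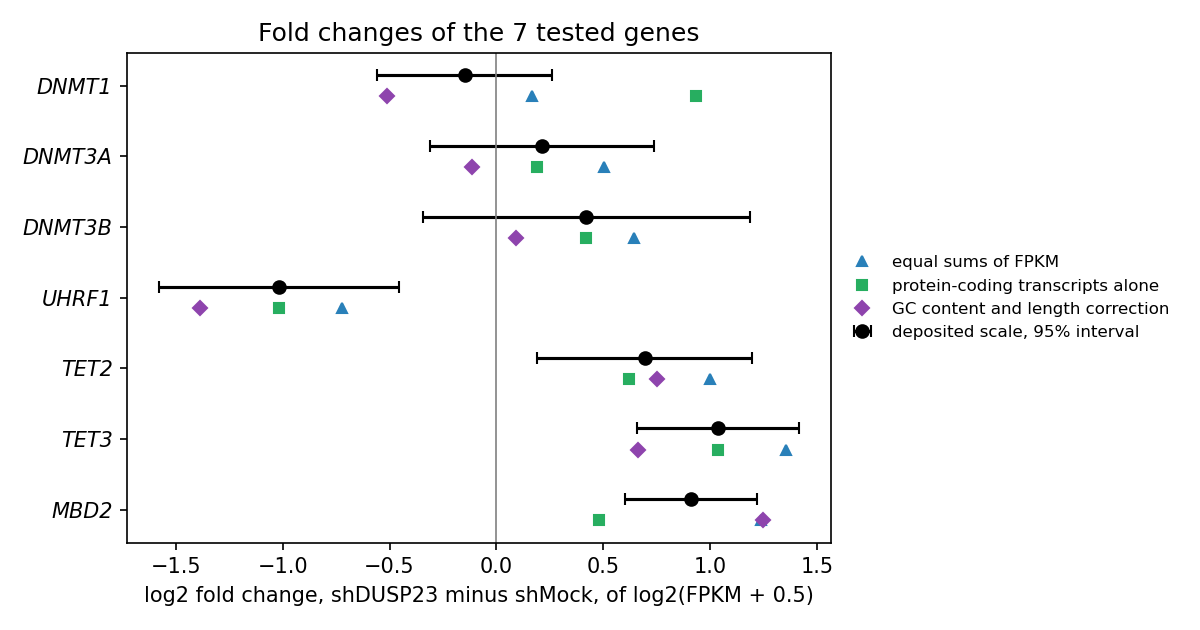
Log2 fold change, shDUSP23 minus shMock, of log2(FPKM + 0.5) for the 7 tested members, with the 95% interval on the deposited scale (black) and the value under 3 other treatments of the data (coloured, no interval drawn). TET3, TET2 and MBD2 lie right of 0 and UHRF1 left of it under all 4, while DNMT1 and DNMT3A lie on both sides.

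In order of level, summed over all listed transcripts, the shDUSP23 clusters had MBD2, TET3, DNMT1, TET2, DNMT3A, UHRF1, DNMT3B and TET1. Only the neighbours DNMT1 and TET2 overlapped between libraries. The shMock clusters had MBD2, DNMT1, TET3, UHRF1, TET2, DNMT3A, DNMT3B and TET1. No neighbours overlapped there, although the higher UHRF1 library and the lower TET3 library, at 6.29 and 6.31 FPKM, were nearly equal. UHRF1 stood below TET2 and DNMT3A in shDUSP23 and above both in shMock. With protein-coding transcripts alone MBD2 stood below TET3 in shDUSP23 and overlapped it in shMock.

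The partners of maintenance methylation, 8 genes that act with DNMT1 and UHRF1 at replicated DNA, were called lower in shDUSP23 for 5 and higher for 1. Over all tested genes 22.2% were called lower and 23.1% higher. The median log2 fold change of the 8 was -1.21, against 0.03 over all tested genes. PCNA, the replication clamp that binds DNMT1, had 60.1 and 56.1 FPKM in shDUSP23, against 324 and 332 FPKM in shMock (log2 fold change -2.49, SE 0.11; limma, Benjamini-Hochberg adjusted p = 1.69e-05). PCLAF, a PCNA-associated factor that UHRF1 ubiquitylates, had 3.86 and 3.68 FPKM in shDUSP23, against 29.9 and 36.1 FPKM in shMock (log2 fold change -2.97). CDCA7, which recruits the remodeller HELLS, had 6.19 and 6.59 FPKM in shDUSP23, against 21.8 and 20.2 FPKM in shMock (log2 fold change -1.64), and HELLS itself had -1.36 and CDCA7L -1.05. LIG1, the replicative DNA ligase that recruits UHRF1 through a methylated lysine, was called the other way with 28.6 and 30.9 FPKM in shDUSP23 and 18.4 and 22.7 FPKM in shMock, but its protein-coding transcripts alone had a log2 fold change of -1.09 (limma, Benjamini-Hochberg adjusted p = 0.0213). The LIG1 call was lost without shMock 1 (log2 fold change 0.38; limma, Benjamini-Hochberg adjusted p = 0.148) and with eBayes without a trend (0.0564). UHRF2, the paralog of UHRF1, and USP7, the deubiquitylase that stabilises it, did not pass, with log2 fold changes of -0.17 and -0.12. A promoter window with an E2F-type core was found for 6 of the 8.

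UHRF1 is known to follow the cell cycle, so 18 genes of replication and S phase are given beside it. They were called lower for 15 and higher for 0, beside 22.2% and 23.1% of all tested genes. Their median log2 fold change was -1.16, against 0.03 over all tested genes. Of the 15 genes of the list with a RefSeq window, 11 had an E2F-type core, against 11% of all 27305 genes. RRM2, a ribonucleotide reductase subunit, had 5.79 and 5.66 FPKM in shDUSP23, against 21.8 and 27.3 FPKM in shMock (log2 fold change -2.00). TYMS, thymidylate synthase, had -1.37 and RRM1, the other reductase subunit, -1.31. The list summed to 137 and 130 FPKM in shDUSP23, against 329 and 304 FPKM in shMock, and with equal sums 10 of the 18 were called lower. The part of these genes in the UHRF1 value was not tested.

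The other methyl-CpG readers were called in both directions, 4 of 10 higher and 2 lower, beside 23.1% and 22.2% of all tested genes. The median log2 fold change of the 10 was 0.19. With equal sums 5 were higher and 1 lower, with a median of 0.51, against 0.34 over all genes on that scale. MBD1, which binds methylated CpG, had 37.5 and 44.0 FPKM in shDUSP23, against 19.5 and 18.5 FPKM in shMock (log2 fold change 1.08, SE 0.14; limma, Benjamini-Hochberg adjusted p = 0.00054). MBD4, a glycosylase that repairs mismatches from deaminated methylcytosine, had 12 and 10.8 FPKM in shDUSP23, against 22.9 and 23.4 FPKM in shMock (log2 fold change -0.99). MBD3, the NuRD subunit that takes the place of MBD2 in other NuRD complexes, had 12.3 and 12.3 FPKM in shDUSP23, against 20.3 and 21.4 FPKM in shMock (log2 fold change -0.74), a call lost with equal sums (limma, Benjamini-Hochberg adjusted p = 0.0548) and with protein-coding transcripts alone (0.709).

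Of 13 NuRD genes 6 were called lower and 2 higher, beside 22.2% and 23.1% of all tested genes. The median log2 fold change of the 13 was -0.37. The lower ones included RBBP4, a histone chaperone subunit with 25.0 and 22.5 FPKM in shDUSP23 and 54.9 and 59.6 FPKM in shMock (log2 fold change -1.25), its paralog RBBP7 (-1.24) and the deacetylase HDAC2 (-0.88). The remodelling ATPase CHD4 (0.49) and GATAD2B (0.59), which bridges MBD2 to CHD4, were called higher, and both calls were lost without shMock 1, without shMock 2 and without shDUSP23 2, at adjusted p (limma, Benjamini-Hochberg) from 0.0593 to 0.178 and log2 fold changes of 0.41 to 0.52 for CHD4 and 0.47 to 0.67 for GATAD2B. After libraries were corrected for length and GC content neither passed, with 0.20 for CHD4 and 0.43 for GATAD2B (limma, Benjamini-Hochberg adjusted p = 0.214 and 0.0759). With equal sums the list had 3 higher and 4 lower and a median of -0.04, against 0.34 over all genes on that scale.

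Around the TET reaction 17 of 18 listed genes were tested, with 3 higher, 5 lower and a median log2 fold change of -0.21. Over all tested genes 45.3% were called in either direction. IDH1, which makes the 2-oxoglutarate that TET enzymes use, had 73.8 and 74.2 FPKM in shDUSP23, against 185 and 190.1 FPKM in shMock (log2 fold change -1.33, SE 0.11; limma, Benjamini-Hochberg adjusted p = 8.11e-05). The base excision repair genes NEIL3 and APEX1 had log2 fold changes of -2.74 and -1.18. Called the other way were TDG, the glycosylase that removes the oxidised bases TET makes, with 36.5 and 34.0 FPKM in shDUSP23 and 26.4 and 27 FPKM in shMock (log2 fold change 0.39), the stress gene GADD45A (0.92) and CXXC5 (0.82), a CXXC-domain protein. TDG had 0.38, 0.41 and 0.35 without shMock 1, shMock 2 and shDUSP23 1, which did not pass (limma, Benjamini-Hochberg adjusted p = 0.134, 0.117 and 0.0963), nor did it with eBayes without a trend (0.0777). With equal sums 5 were higher and 3 lower, with a median of 0.13, below the 0.34 over all genes on that scale. On that scale 75.7% of all genes called were higher.

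In the S-adenosylmethionine cycle, which supplies the methyl donor, 12 of 16 genes were tested, with 1 higher, 6 lower and a median log2 fold change of -0.45. Beside these, 23.1% of all tested genes were called higher and 22.2% lower. AHCY, which clears the inhibitory product S-adenosylhomocysteine, had 46.0 and 43.3 FPKM in shDUSP23, against 88.9 and 88.9 FPKM in shMock (log2 fold change -0.99). The folate enzyme MTHFD1 had 15.7 and 14.0 FPKM in shDUSP23, against 37.2 and 31.6 FPKM in shMock (log2 fold change -1.18).

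Germline genes known to be silenced by promoter methylation were listed as a possible readout of lost methylation, but only 3 of 19 had values. XAGE1B, a cancer-testis antigen, had 16.9 and 12.2 FPKM in shDUSP23, against 9.70 and 11.4 FPKM in shMock, and did not pass (log2 fold change 0.43; limma, Benjamini-Hochberg adjusted p = 0.0994), whereas it was called higher with equal sums (0.76), with the correction for length and GC content (0.63, also with the replicate block) and without shDUSP23 2 (0.66). MAGEA3 had 0.705 and 1.15 FPKM in shDUSP23 and 0.671 and 0.777 FPKM in shMock, and STK31 had 0 in both shDUSP23 libraries and 1.1 and 0.0770 FPKM in shMock. XAGE1B was the only gene of the list tested and was not silent in shMock, so the list gave no readout of lost methylation here. DNA methylation itself was not measured in these libraries.

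**Figure D4:**
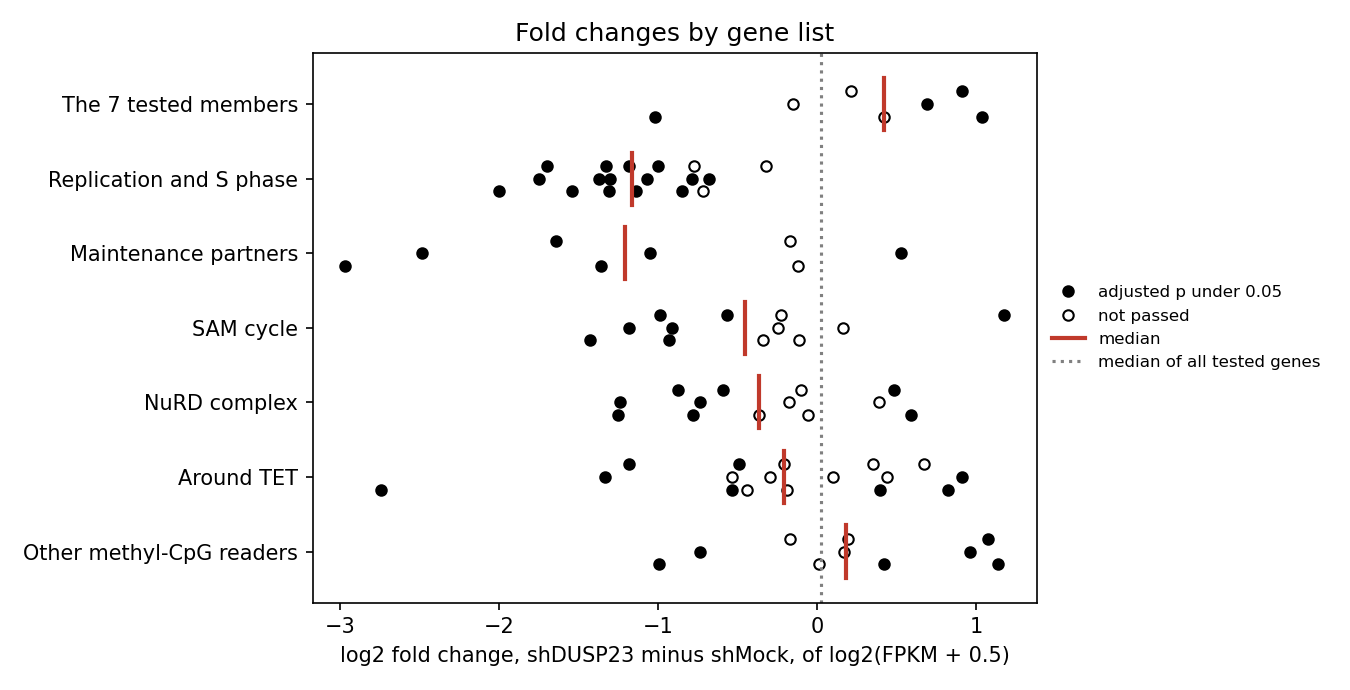
Log2 fold change, shDUSP23 minus shMock, of log2(FPKM + 0.5) for the 7 tested members and the tested genes of 6 lists, filled where the adjusted p was under 0.05, with a red line at each median and a dotted line at the median of all tested genes. The medians of the replication list (-1.16) and of the maintenance partners (-1.21) lie farthest left, and the members (0.42) lie right of 0.

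Of the genes averaging 5 FPKM or more, those whose centred log2 values over the 4 libraries lay nearest to UHRF1 were MRS2, a mitochondrial magnesium channel (distance 0.0600), TUBB3, a beta tubulin (0.0669), and BIRC5, the mitotic protein survivin (0.0856). BIRC5 had 6.69 and 9.45 FPKM in shDUSP23, against 16.3 and 18.3 FPKM in shMock. In all 123 of 9876 genes lay within 0.25 of UHRF1. Nearest to DNMT1 were TIGAR, a regulator of glycolysis (0.0225), DHRS11, a dehydrogenase (0.0226), and GTF2IP4, a pseudogene that may share reads with GTF2I (0.0257), and 1265 of 9875 genes lay within 0.25 of it. With 4 libraries many genes share a pattern.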

How the data were processed

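The deposited table held FPKM values that the authors had computed for each Ensembl transcript in each library, without counts. The submitters' processing notes name STAR 2.7.1a, DESeq2 1.32.0 and GRCh38, and the quantifier, annotation release and strandedness were not named there. Transcripts were summed per gene ID. Library totals came from the steps between low values in single-transcript genes, of which 91.1% to 93.4% were whole fragments (tolerance 0.1 fragment). No count test was run, since sums over several transcripts were not all whole. Fragments are given where a transcript's ends match GENCODE 29, which held 93.6% of listed transcripts. Counting error is the only error those numbers cover.

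Tests were limma 3.58.1 in R 4.3.3 (lmFit, eBayes with trend, two-sided) on log2(FPKM + 0.5), for features of mean at least 1 FPKM. Named were the members, DUSP23, from each list the 3 genes of lowest p and those called against it, and the 3 genes nearest UHRF1 and DNMT1. Some genes named by this rule are not reported here. HELLS, CDCA7L, UHRF2, USP7, MAGEA3 and STK31 were named after their values were seen. The members and lists were chosen with earlier results of these data known. The procedure was tested on simulated data. Alternatives were other pseudocounts, filters, scalings and eBayes settings, protein-coding transcripts alone, GC and length correction (spline, 5 degrees of freedom), a replicate block and each library left out. Summing transcripts of identical values was chosen after seeing the data. Tables and figures used Python 3.11.15.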

Additional observations from a re-analysis of the deposited data

How the results depend on the processing

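Over 931 values under alternatives, 880 kept their direction and side of the threshold or, for counts, stayed within 1.5 times. The 4 member genes called became 2 with protein-coding transcripts alone, 2 to 4 with 1 library left out, 3 at a minimum mean of 5 FPKM and 5 with GC and length correction, with or without the block. Transcripts called were 0, became 1 with equal sums of FPKM (TET3-202) and stayed 0 with a library left out. No transcript share was called, also with a library left out (0). With equal sums of FPKM, 75.7% of the genes called were higher, against 51% on the deposited scale, and over all tested genes the median log2 fold change was 0.34 against 0.03. DNMT1 reversed to 0.17 with equal sums and to 0.93 with protein-coding transcripts, LIG1 to -1.09 with the same protein-coding setting, and DNMT3A to -0.11 with GC and length correction, with or without the replicate block. The causes were not tested. GC and length correction gave DNMT1 -0.51 (limma, Benjamini-Hochberg adjusted p = 0.0349), from sequence of 3 of its 12 transcripts. Without 1 library the transcript fold changes ran from -2.42 to 0.44 for DNMT1-233, -0.17 to 1.04 for TET2-203 and -0.29 to 1.75 for MBD2-204. The share changes ran from -1.09 to 0.058 for DNMT1-202, -2.24 to 0.56 for DNMT1-233, -0.65 to 0.59 for TET2-201, -0.83 to 0.30 for TET2-203 and -1.14 to 0.79 for MBD2-204.

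Libraries with the same number did not deviate together (correlation 0.0528). Same-numbered libraries of both groups share a tag in their names, and with so few libraries a pairing by experiment was not excluded. With the replicate block 4 member genes were called, 0 transcripts and 0 shares, and 6707 of all genes against 6202. Without shMock 1 the count over all genes was 4038 and without shMock 2 it was 3464. At a minimum mean of 5 FPKM UHRF1, DNMT3A and DNMT3B had no value. The low level of TET1 kept it out of the test. The floor of 3 fragments covers counting error only. It does not bound the DNMT3B forms listed at 0, because most of their sequence is shared and fragments had to be divided between them.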
